A study of Homo sapiens with 12 samples.

Results

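The osteoblast lineage genes examined here are 9 genes of the bone-forming cell: the transcription factors RUNX2, SP7, DLX5, MSX2 and TWIST1, and the matrix and mineralisation genes ALPL, SPP1, IBSP and SPARC. They were chosen by symbol, and each of the 9 was found among the 60583 genes of the count tables. The assay was TT-seq. It sequences RNA fragments captured after a short pulse of 4-thiouridine, so that reads report ongoing transcription over the whole gene, introns included. The 12 libraries formed 4 groups of 3. U2OS, an established human osteosarcoma line, was transfected with a control siRNA (siCtrl) or with an siRNA against INTS11 (siINTS11). U2OS-AsiSI cells derive from U2OS and express AsiSI-ER, a DNA-cutting enzyme that 4-hydroxytamoxifen (OHT) brings into the nucleus. They were transfected with the same siRNAs and also had OHT for 1 hour. All 4 groups were collected 48 hours after transfection. The U2OS groups are not labelled as having had OHT, so the enzyme, the drug and any drift between the lines cannot be told apart in a comparison of the lines. Whether replicates were separate cultures is not stated, so p-values measure the spread between these libraries, which may be technical.

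In bone, RUNX2 is the factor that commits mesenchymal cells to the osteoblast fate, and SP7 (osterix) acts after it. DLX5 and MSX2 are homeodomain factors that act, respectively, for and against osteoblast maturation, and TWIST1 holds RUNX2 in check in early precursors. ALPL is the tissue-nonspecific alkaline phosphatase that frees phosphate for mineral, SPP1 (osteopontin) and IBSP (bone sialoprotein) are acidic matrix phosphoproteins that bind mineral and integrins, and SPARC (osteonectin) is an abundant collagen- and calcium-binding glycoprotein made by many mesenchymal cells. INTS11 is the RNA endonuclease of Integrator, a complex that cuts nascent transcripts and ends transcription of RNA polymerase II early at many genes.

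The promoter windows of RUNX2, MSX2 and SPP1 are printed here because RUNX2 fell and the other two rose, and because theirs are the windows that hold a RUNX or homeodomain core, shown with the second RUNX2 window that holds none. RUNX2 itself starts at a distal and a proximal promoter, and the counts sum over both. Sequences come from RefSeq (GRCh38.p14), 250 bases before to 50 after a start site, 5′ to 3′ on the gene's strand. Capitals mark the RUNX core (TGTGGT, or ACCACA on the other strand) and the homeodomain core (TAATTA, the same on both strands), which do not overlap each other.
RUNX2 distal promoter, chr6:45328080-45328379, plus strand: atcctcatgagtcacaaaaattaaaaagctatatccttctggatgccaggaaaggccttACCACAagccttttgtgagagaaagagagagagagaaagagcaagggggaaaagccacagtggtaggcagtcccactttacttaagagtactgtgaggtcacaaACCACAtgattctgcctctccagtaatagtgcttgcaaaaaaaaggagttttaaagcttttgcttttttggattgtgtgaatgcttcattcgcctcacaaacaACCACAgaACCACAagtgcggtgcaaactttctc
RUNX2 proximal promoter, chr6:45422025-45422324, plus strand: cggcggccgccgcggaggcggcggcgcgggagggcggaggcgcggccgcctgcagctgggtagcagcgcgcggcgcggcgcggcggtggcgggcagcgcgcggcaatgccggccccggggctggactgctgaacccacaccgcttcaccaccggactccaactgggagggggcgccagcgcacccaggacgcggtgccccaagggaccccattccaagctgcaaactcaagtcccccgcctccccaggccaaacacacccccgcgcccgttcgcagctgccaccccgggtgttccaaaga
MSX2 promoter, chr5:174724332-174724631, plus strand: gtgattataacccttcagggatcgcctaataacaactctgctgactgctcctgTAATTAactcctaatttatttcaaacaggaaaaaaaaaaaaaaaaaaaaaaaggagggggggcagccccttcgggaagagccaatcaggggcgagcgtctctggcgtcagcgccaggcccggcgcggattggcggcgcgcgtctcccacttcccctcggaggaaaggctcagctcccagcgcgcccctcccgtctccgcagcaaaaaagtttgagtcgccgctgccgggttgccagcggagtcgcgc
SPP1 promoter, chr4:87975464-87975763, plus strand: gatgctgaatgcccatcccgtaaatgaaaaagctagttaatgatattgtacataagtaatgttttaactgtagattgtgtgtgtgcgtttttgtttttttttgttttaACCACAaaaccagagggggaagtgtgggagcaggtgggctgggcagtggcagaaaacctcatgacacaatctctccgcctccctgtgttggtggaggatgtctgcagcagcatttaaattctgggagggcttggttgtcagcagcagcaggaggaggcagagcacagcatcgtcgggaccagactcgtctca

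RefSeq windows were matched for 6 of the 9 genes, 9 windows in all. The distal RUNX2 window held 4 RUNX cores and had a GC content of 42.7%, whereas the proximal window held 0 and had a GC content of 76%. The SPP1 window held 1 RUNX core. Of 35116 RefSeq windows of the same length, 13.1% held at least 1 such core. The MSX2 window held 1 TAATTA, a sequence found in 4.84% of windows. The 3 ALPL windows and those of IBSP and SPARC held neither motif, and the TATAAA box, present in 7.33% of all windows, was in 0 of the 9. These matches describe letters only.

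Total counts ran from 20704611 to 38065726 per library, and replicates differed beyond sampling noise in every group (chi-square per degree of freedom 1.93 to 3.28). Levels are given as CPM (read counts scaled to a common library size, with TMM factors), and tests are edgeR's quasi-likelihood test with Benjamini-Hochberg adjustment over all genes tested, at 0.05. INTS11, the targeted gene, had 277, 314 and 286 counts in the U2OS siCtrl libraries and 260, 216 and 225 after siINTS11, a log2 change of -0.42 (SE 0.09, edgeR adjusted p = 6.08e-05). In U2OS-AsiSI it had 284, 351 and 269 counts against 258, 212 and 277, a log2 change of -0.13 (SE 0.08) that did not pass (edgeR adjusted p = 0.172). An siRNA acts on mature RNA, so nascent counts check the labels only weakly, and the siRNA groups are the libraries so labelled. Between the siRNAs very many genes differed: 68.0% of 20441 tested genes in U2OS-AsiSI and 66.9% of 20687 in U2OS. Scaling by library totals alone moved the median of all genes to 0.22 in both lines (0.03 and 0.02 with TMM) and the split of calls from 52.1% higher to 72.4% in U2OS-AsiSI, and from 51.6% to 74.3% in U2OS. Both scalings are relative to each library's own reads, so a change in total nascent output was not measured.

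Nascent reads were plentiful for only some of the 9 genes. SPARC, RUNX2 and MSX2 were plainly transcribed, ALPL and SPP1 were low, and SP7, DLX5, TWIST1 and IBSP lay at 0 to 12 counts in every library. The name of the group is thus borne out by part of its genes only. Compared per kilobase of gene span, SPARC was highest in all 12 libraries, at 7.55 to 9.47 CPM per kb. Its group means stood at the 98.6 to 99.4 percentile of protein-coding genes. RUNX2 came second in the U2OS siCtrl group (1.28 to 1.33 CPM per kb) and MSX2 came next (0.790 to 1.00). In the other 3 groups MSX2 stood above RUNX2, and these neighbours in the order did not overlap in any group. ALPL (0.0353 to 0.171 CPM per kb) and SPP1 (0.0262 to 0.222) followed and overlapped each other in 3 of the 4 groups. IBSP and SP7 overlapped in 2 of the 4 groups, and DLX5 and TWIST1 were lowest.

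**Figure D1:**
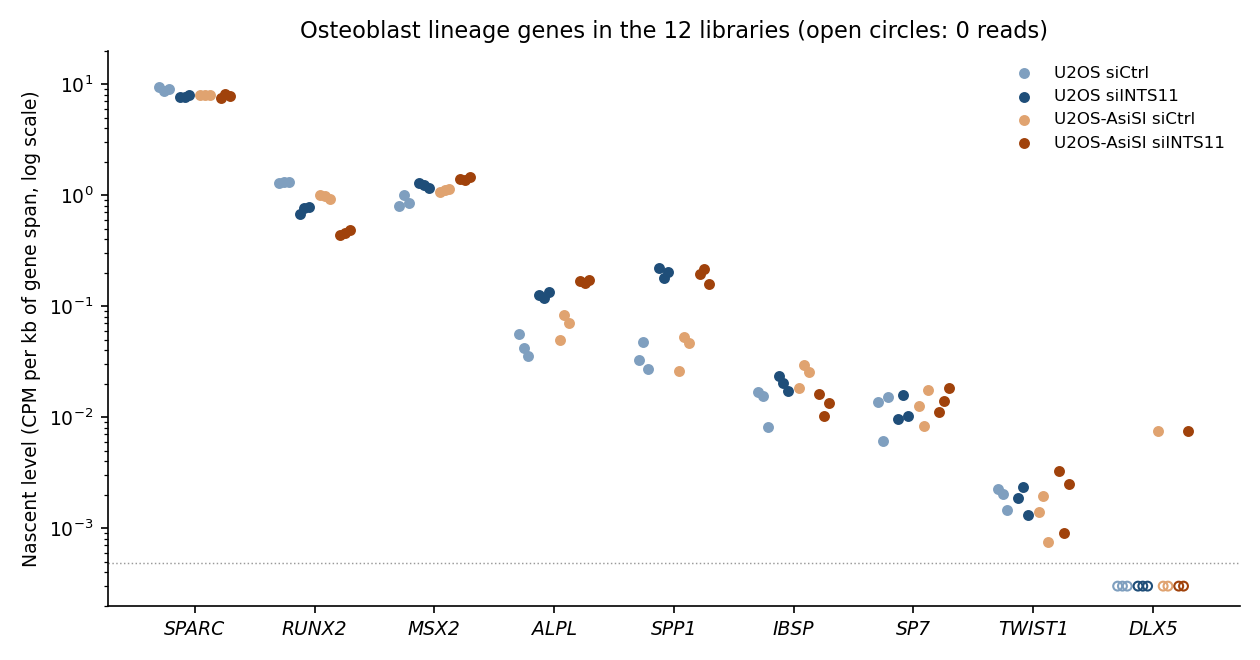
Nascent level of the 9 genes in each of the 12 libraries, in CPM per kb of gene span on a log axis, coloured by group. Open circles under the dotted line stand for 0 reads. SPARC lies above 7 in every library, RUNX2 and MSX2 lie near 1, and SP7, IBSP, TWIST1 and DLX5 lie at the bottom, with DLX5 at 0 reads in 10 of 12 libraries.

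The first comparison asked how these genes differed between the siINTS11 and siCtrl libraries of U2OS. RUNX2 transcription fell, that of SPARC fell slightly, and that of MSX2, ALPL and SPP1 rose, SPP1 the most. All 5 genes that reached the count minimum passed the test, 3 higher and 2 lower, where 34.5% of all tested genes were higher and 32.4% lower. The other 4 (SP7, DLX5, TWIST1 and IBSP) were too low to test. SPP1 reached the minimum only by its siINTS11 libraries, so the counts of called genes and the medians over the tested genes are descriptions. The median log2 change of the 5 was 0.44, against 0.02 for all tested genes. In U2OS-AsiSI the same genes moved the same way except SPARC: 4 of 5 passed, 3 higher and 1 lower, where 35.4% of all tested genes were higher and 32.6% lower. Their median was 0.36, against 0.03 for all.

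RUNX2, the commitment factor, stood at 429.4, 446.2 and 437.5 CPM in the U2OS siCtrl libraries and at 228.6, 259.3 and 260.7 CPM after siINTS11. In U2OS-AsiSI the siCtrl libraries stood at 336.3, 328.9 and 311.4 CPM and the siINTS11 libraries at 148.6, 153.5 and 161.5 CPM. Every siINTS11 library lay below every siCtrl library of its line, and the groups of the 2 lines did not overlap either. The log2 change was -0.84 in U2OS (SE 0.04, 1.79-fold lower, edgeR adjusted p = 3.91e-20). It was -1.07 in U2OS-AsiSI (SE 0.05, 2.10-fold lower, edgeR adjusted p = 1.87e-18). RUNX2 (ENSG00000124813) spans 336 kb of the plus strand, chr6:45328157-45664349 in GRCh38, and belongs to the longest decile of tested protein-coding genes (202.2 to 2474 kb in U2OS-AsiSI). That decile had a median log2 change of -0.29 in U2OS and -0.33 in U2OS-AsiSI. RUNX2 was lower than that median, with 11.8% of the decile below it in U2OS and 6.31% in U2OS-AsiSI. The part that span had in its change was not tested.

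No gene shares a strand with RUNX2 within its span. On the opposite strand lie SUPT3H, which overlaps 14.8% of RUNX2, the short antisense gene AL096865.1, and RUNX2-AS1, with 0 counts in every library. SUPT3H, a subunit of histone acetyltransferase complexes, was low at 47 to 76 counts. Its log2 change was 0.36 in U2OS (SE 0.15, edgeR adjusted p = 0.0357) and 0.26 in U2OS-AsiSI (SE 0.15, edgeR adjusted p = 0.142). AL096865.1 had 71, 79 and 55 counts in the U2OS siCtrl libraries and 41, 45 and 50 after siINTS11. In U2OS-AsiSI its counts were 54, 69 and 46 against 29, 23 and 30. This antisense RNA fell in both lines beside RUNX2, by 0.68 in U2OS and by 0.89 in U2OS-AsiSI on the log2 scale (edgeR adjusted p = 0.000485 and 9.8e-05).

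MSX2 (ENSG00000120149, chr5:174724582-174730896, plus strand) is a short gene of 6.32 kb. Its U2OS siCtrl libraries stood at 4.99, 6.33 and 5.33 CPM and its siINTS11 libraries at 8.13, 7.75 and 7.31 CPM. In U2OS-AsiSI they stood at 6.75, 7.02 and 7.16 CPM against 8.84, 8.63 and 9.28 CPM. The siRNA groups did not overlap in either line, but the rise was small. The log2 change was 0.44 in U2OS (SE 0.10, 1.35-fold, edgeR adjusted p = 0.000144) and 0.36 in U2OS-AsiSI (SE 0.09, 1.29-fold, edgeR adjusted p = 0.00059). Among the shortest decile of genes, 78.0% lay below MSX2 in U2OS and 69.5% in U2OS-AsiSI, so its rise was not unusual for genes so short.

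ALPL (ENSG00000162551, chr1:21509397-21578410, plus strand), the phosphatase gene, stood at 3.90, 2.91 and 2.43 CPM in the U2OS siCtrl libraries and at 8.67, 8.11 and 9.29 CPM after siINTS11. In U2OS-AsiSI it stood at 3.39, 5.70 and 4.82 CPM against 11.6, 11.1 and 11.8 CPM. The lowest siINTS11 library was above the highest siCtrl library in both lines. The log2 change was 1.47 in U2OS (SE 0.12, 2.78-fold, edgeR adjusted p = 2.47e-14) and 1.31 in U2OS-AsiSI (SE 0.11, 2.48-fold, edgeR adjusted p = 1.15e-11). ALPL spans 69.0 kb, and genes of that decile of span (54.1 to 78.1 kb in U2OS-AsiSI) had medians of -0.14 and -0.15. Of those genes 97.6% lay below ALPL in U2OS and 96.7% in U2OS-AsiSI. The nearest gene that ends upstream on the same strand, NBPF3, lies 24392 bases away and moved the other way, by -0.27 in U2OS and -0.33 in U2OS-AsiSI (edgeR adjusted p = 3.13e-05 and 1.74e-05).

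SPP1 (ENSG00000118785, chr4:87975650-87983426, plus strand), the osteopontin gene, had 7, 13 and 6 counts in the U2OS siCtrl libraries and 57, 43 and 49 after siINTS11. In U2OS-AsiSI it had 6, 13 and 10 counts against 43, 38 and 36. Every siINTS11 library held far more counts than any siCtrl library of its line. In CPM the groups averaged 0.278 ± 0.0805 and 1.57 ± 0.158 in U2OS, and 0.325 ± 0.108 and 1.47 ± 0.222 in U2OS-AsiSI (SD, n = 3). The log2 change was 2.41 in U2OS (SE 0.26, 5.33-fold, edgeR adjusted p = 6.77e-11) and 2.14 in U2OS-AsiSI (SE 0.27, 4.42-fold, edgeR adjusted p = 2.61e-08). These were the largest changes among the 5 tested genes, yet even after siINTS11 the level of SPP1 was only at the 48.2 to 48.3 percentile of protein-coding genes per kb. Of genes of like span (6.84 to 12.7 kb in U2OS-AsiSI), 99.4% lay below it in U2OS and 99.0% in U2OS-AsiSI, shares that are descriptions too, since SPP1 was tested only because it was high after siINTS11.

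SPARC (ENSG00000113140, chr5:151661096-151686975, minus strand) changed least of the 5 tested genes. Its U2OS siCtrl libraries stood at 245.2, 223.4 and 235.9 CPM and its siINTS11 libraries at 198.1, 199.8 and 204.9 CPM, without overlap. The log2 change was -0.25 (SE 0.04, 1.19-fold lower, edgeR adjusted p = 8.3e-07). Scaled by library totals alone it was -0.05 and did not pass (edgeR adjusted p = 0.147, range over the alternatives 1.34e-08 to 0.147). In U2OS-AsiSI its siCtrl libraries stood at 206.2, 206.6 and 205.1 CPM and its siINTS11 libraries at 195.4, 210.1 and 200.4 CPM. These overlapped, and the log2 change was -0.02 (SE 0.04, approximate 95% interval from the SE -0.11 to 0.06, edgeR adjusted p = 0.647). Scaled by library totals alone it was 0.17 and passed (edgeR adjusted p = 0.000302, range 0.000302 to 0.971), so the call for SPARC and, in U2OS-AsiSI, its sign depended on the scaling. SPARC was also dense in reads, at 0.241 per base. Within groups, its counts grew with the library total with a log-log slope of 0.77, where 1 is proportional. The 1240 genes at 0.1 to 0.3 reads per base had a median slope of 0.80, and 9925 genes at 0.01 to 0.1 had 1.04. Counts of genes as dense as SPARC thus grew less than in proportion to depth. The antisense gene CLMAT3, which overlaps 38.8% of SPARC, rose by 0.36 in U2OS and by 0.39 in U2OS-AsiSI (edgeR adjusted p = 0.000789 and 0.00197).

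**Figure D2:**
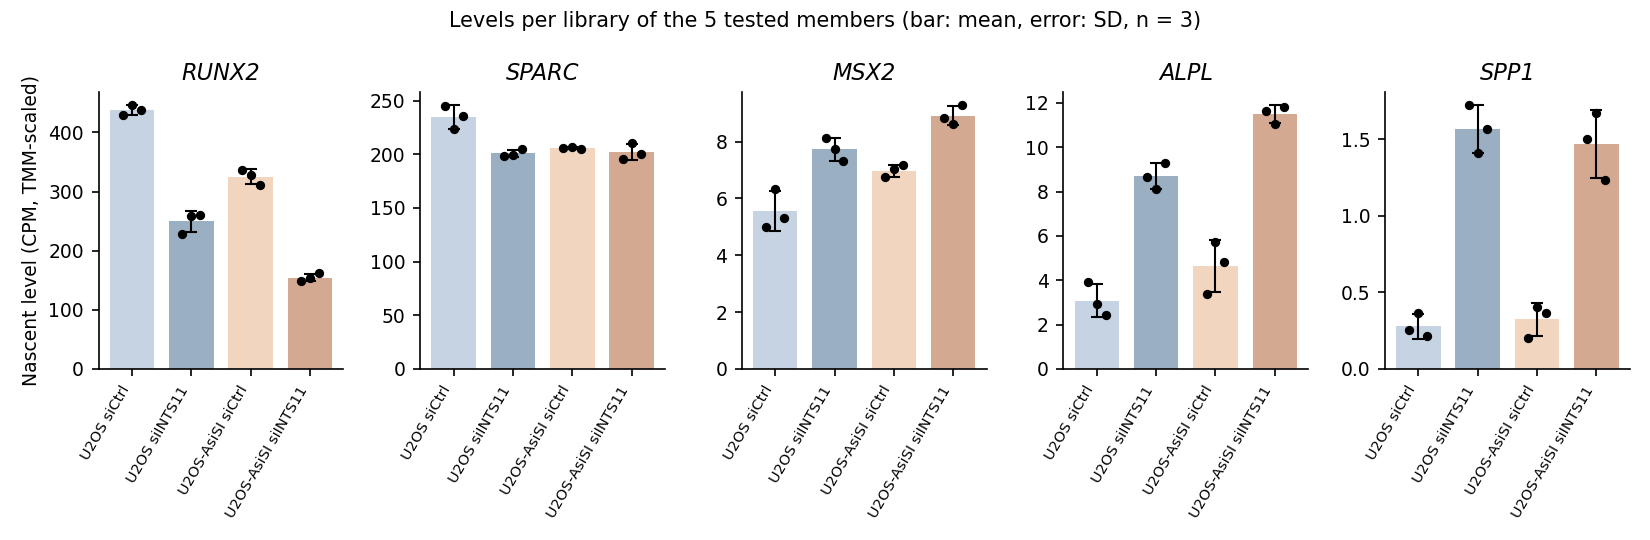
Nascent level in CPM (TMM-scaled, linear axis from 0) of the 5 tested genes in the 4 groups. Bars are means, error bars SD (n = 3), points single libraries. RUNX2 falls to 249.5 and 154.5 CPM after siINTS11 in U2OS and U2OS-AsiSI, ALPL rises to 8.69 and 11.5, and SPARC stays between 195.4 and 245.2 in all libraries.

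The change in the 2 lines of U2OS was thus alike in sign for RUNX2, MSX2, ALPL and SPP1, each measured against its own siCtrl libraries.

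**Figure D3:**
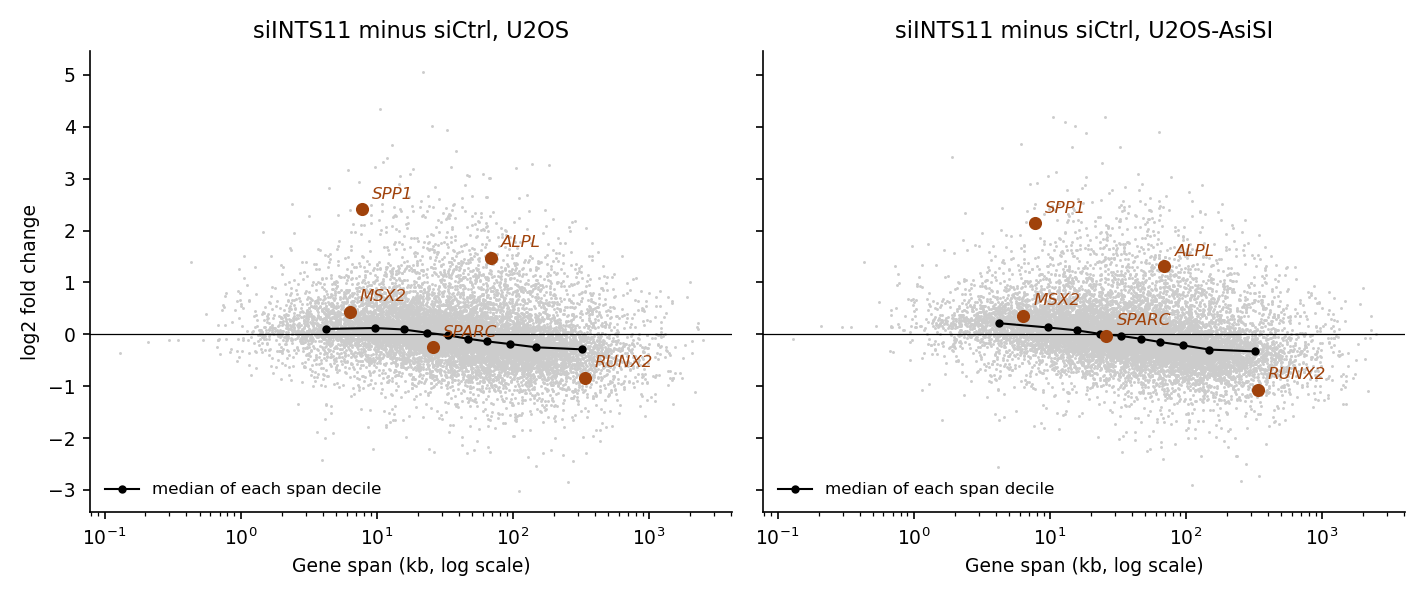
Log2 fold change after siINTS11 against gene span (kb, log axis) for all tested protein-coding genes (grey), with the median of each decile of span (black) and the 5 tested osteoblast lineage genes (brown). RUNX2 lies below the black line at the long end, and SPP1 and ALPL lie above it in both lines.

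The 4 untested genes gave little RNA. DLX5 (chr7:97020396-97024950, minus strand) had 2 counts in all 12 libraries together. SP7 (chr12:53326575-53345315, minus strand) had 4 to 10 counts per library and summed to 19, 21, 21 and 22 over the U2OS siCtrl, U2OS siINTS11, U2OS-AsiSI siCtrl and U2OS-AsiSI siINTS11 groups. TWIST1 (chr7:19020991-19117636, minus strand) had 2 to 9 counts over a span that the tables set at 96.6 kb, and summed to 17, 17, 12 and 18. Neither SP7 nor TWIST1 separated the siRNAs in either line. At this depth a fall or a small rise in these 3 genes was not detectable. Osterix, the factor downstream of RUNX2, was near silent both where RUNX2 was high and where it had fallen.

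IBSP (chr4:87799554-87812435, plus strand), the bone sialoprotein gene, was as low, but its libraries sorted by group. It had 6, 7 and 3 counts in U2OS siCtrl and 10, 8 and 7 after siINTS11, and 7, 12 and 9 in U2OS-AsiSI siCtrl against 6, 3 and 5. In CPM, the siINTS11 libraries all lay above the siCtrl libraries in U2OS and all below them in U2OS-AsiSI. Without the count filter the log2 changes were 0.54 (edgeR adjusted p = 0.41) and -0.85 (edgeR adjusted p = 0.149). Their difference, -1.37, did not pass either (SE 0.67, edgeR adjusted p = 0.437). The opposite signs in the 2 lines were thus not shown to differ at this depth.

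IBSP and SPP1 belong to a row of related genes on chromosome 4 that encode secreted phosphoproteins of bone and tooth, with DMP1, DSPP and MEPE. The 24 genes within 400 kb of SPP1 were looked at after its values were seen. MEPE, 154 kb upstream, had 5 to 7 counts in U2OS siCtrl and 11 to 15 after siINTS11, and 6 to 8 against 15 to 19 in U2OS-AsiSI. It rose by 0.97 (SE 0.37, edgeR adjusted p = 0.0186) and by 1.45 (SE 0.33, edgeR adjusted p = 0.000293), but, like SPP1, it reached the count minimum only by its siINTS11 libraries. DMP1, which was too low to test, had 4, 4 and 2 counts against 9, 9 and 10 in U2OS, and 7, 3 and 5 against 8, 7 and 9 in U2OS-AsiSI. DSPP held 0 to 4 counts in every library. Downstream, PKD2, which encodes a cation channel, fell by 0.34 in U2OS and by 0.38 in U2OS-AsiSI (edgeR adjusted p = 6.55e-09 and 5.28e-08). ABCG2, a drug efflux transporter on the other strand, rose by 0.95 and by 0.73 (edgeR adjusted p = 9.53e-10 and 3.13e-06). Changes around SPP1 thus went both ways. AC131944.1, which covers SPP1 on the opposite strand, had 23 to 36 counts under siCtrl and 33 to 46 after siINTS11, with log2 changes of 0.40 in U2OS (edgeR adjusted p = 0.1) and 0.45 in U2OS-AsiSI (edgeR adjusted p = 0.0465). The tables kept the strands apart: 6740 of 11232 genes lying inside a gene of the other strand only had reads, against 0 of 9056 lying inside a gene of their own strand.

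**Figure D4:**
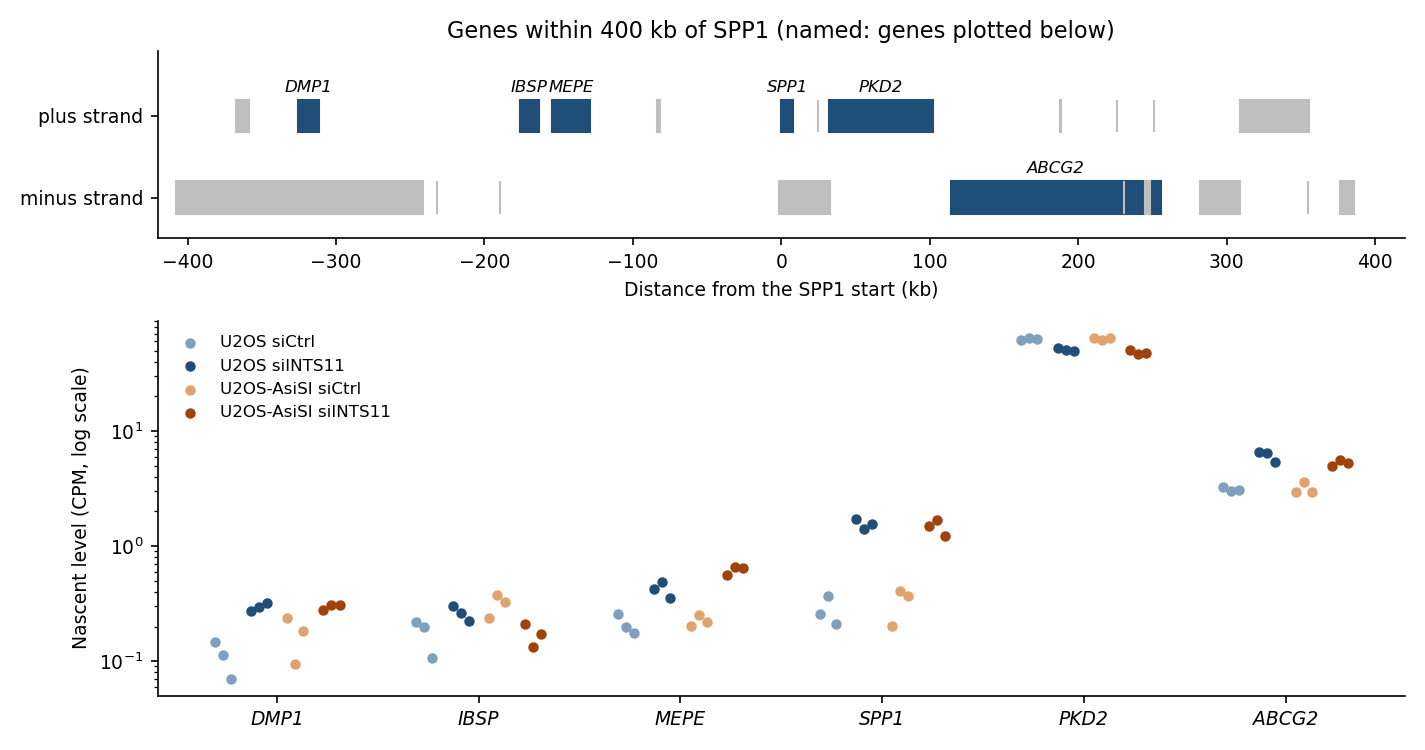
Top, genes within 400 kb of SPP1 by strand, drawn to scale as distance from the SPP1 start. Bottom, CPM on a log axis of 6 of them in each library, coloured by group; SPP1 and MEPE are higher after siINTS11 in both lines, PKD2 is lower, and the IBSP libraries lie higher in U2OS and lower in U2OS-AsiSI at 12 counts or fewer.

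The second comparison set the siCtrl libraries of the 2 lines side by side, libraries that the siRNA comparisons share. RUNX2 and SPARC were lower in U2OS-AsiSI and MSX2 and ALPL higher: 4 of the 5 tested genes passed, 2 each way, where 34.9% of 19935 tested genes passed, 17.8% higher and 17.2% lower. The split of all calls moved from 50.9% higher to 67.4% when scaled by library totals. The median of the 5 was 0.20, against 0.01 for all tested genes. RUNX2 differed by -0.42 (SE 0.04, 1.34-fold lower, edgeR adjusted p = 4.46e-09), from 429.4 or more CPM in every U2OS library to 336.3 or less in every U2OS-AsiSI library. SPARC differed by -0.19 (SE 0.04, edgeR adjusted p = 0.000983), again without overlap. MSX2 differed by 0.32 (SE 0.10, edgeR adjusted p = 0.0144, range over the alternatives 0.00419 to 0.0651), and the libraries did not overlap. That call was lost with DESeq2 (adjusted p = 0.0502) and without U2OS siCtrl replicate 1 (0.26, edgeR adjusted p = 0.0651). ALPL differed by 0.61 (SE 0.17, edgeR adjusted p = 0.00942, range 3.44e-05 to 0.0737), although the lowest U2OS-AsiSI library, at 3.39 CPM, lay below the highest U2OS library, at 3.90. Its call was lost without U2OS-AsiSI siCtrl replicate 2 (0.42, edgeR adjusted p = 0.0661) or replicate 3 (0.58, edgeR adjusted p = 0.0737). SPP1 differed by 0.20 (SE 0.39, 95% interval -0.56 to 0.96, edgeR adjusted p = 0.733), an interval wide enough to hold a difference in either direction. IBSP, untested for its low counts, lay higher in CPM in every U2OS-AsiSI library than in any U2OS library, and without the count filter its log2 difference of 0.84 did not pass (edgeR adjusted p = 0.237). RUNX2 again lay low among the longest decile of genes, whose median was -0.14, with 5.13% below it.

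**Figure D5:**
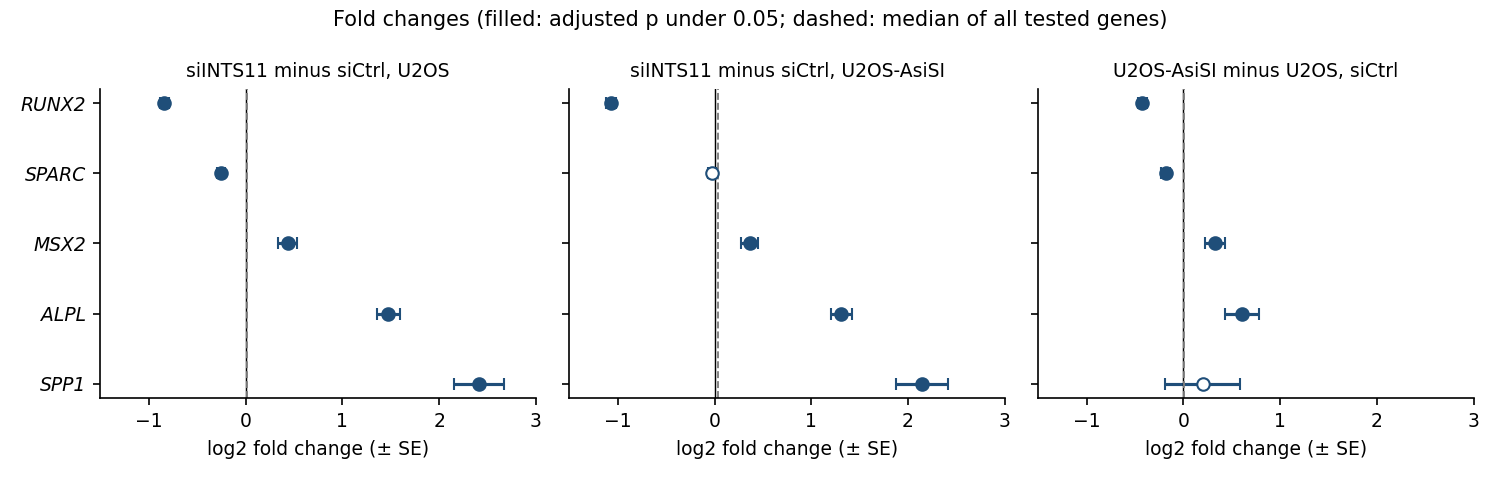
Log2 fold changes (points, with SE) of the 5 tested genes after siINTS11 in U2OS (left) and U2OS-AsiSI (middle), and of U2OS-AsiSI against U2OS under siCtrl (right). Filled points passed an edgeR adjusted p of 0.05, and the dashed line is the median of all tested genes; SPARC is open in the middle panel and SPP1 in the right one.

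The last comparison tested whether siINTS11 acted differently in the 2 lines, as an interaction over all 12 libraries. Of the 5 tested genes only RUNX2 passed, in the lower direction, where 3.87% of 21521 genes passed, 0.762% higher and 3.1% lower. The split of all calls depended on scaling, at 19.7% higher with TMM, 39.6% with median-of-ratios size factors and 29.5% with library totals. The siINTS11 effect on RUNX2 was more negative in U2OS-AsiSI by 0.26 on the log2 scale (-0.26, SE 0.07, edgeR adjusted p = 0.0213). That call was lost with median-of-ratios size factors (-0.23, adjusted p = 0.0799), under a filter at a mean of 50 counts (-0.19, adjusted p = 0.0947), and when any of 7 libraries was omitted singly. Over 19 alternatives its adjusted p ran from 0.00972 to 0.119. SPARC just missed, at 0.20 (SE 0.06, edgeR adjusted p = 0.0526), and passed in 7 of the 19 alternatives (adjusted p from 0.00879 to 0.179). MSX2 differed by -0.11 (95% interval -0.36 to 0.14), ALPL by -0.20 (-0.57 to 0.17) and SPP1 by -0.30 (-1.12 to 0.51), with edgeR adjusted p = 0.703, 0.626 and 0.753. A difference within these intervals was not detectable. The U2OS and U2OS-AsiSI effects of each gene, given above, share no library.

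Genes that work with the 9 were counted by list. Among 24 bone matrix and mineralisation genes, 14 could be tested after siINTS11 in each line. In U2OS 9 fell and 3 rose, and in U2OS-AsiSI 10 fell and 3 rose, with medians of -0.35 and -0.33. Of all tested genes 32.4% fell and 34.5% rose in U2OS, and 32.6% fell and 35.4% rose in U2OS-AsiSI. The 3 that rose in each line were MEPE, PHOSPHO1 and ANKH, of which the last 2 were named after their values were seen. PHOSPHO1 averaged 0.388 CPM under siCtrl and 0.765 CPM after siINTS11 in U2OS-AsiSI. There PHOSPHO1, and in both lines MEPE, reached the count minimum only by the siINTS11 libraries. The counts and medians of this list are thus descriptions. COL5A1, a type V collagen chain of bone fibrils, fell by 1.37 (SE 0.04) and by 1.28 (SE 0.05), with edgeR adjusted p = 2.53e-28 and 1.01e-19. CDH11, the osteoblast cadherin, fell by 1.28 (SE 0.04) and by 1.27 (SE 0.05), with edgeR adjusted p = 1.41e-27 and 2.67e-19. COL5A1 and CDH11 are long genes, of 203 and 182 kb. When scaled by library totals, 7 fell in each line, and 5 and 4 rose. So scaled, 3799 of all 20687 tested genes fell and 10968 rose in U2OS. In U2OS-AsiSI 4024 of 20441 fell and 10550 rose. BGLAP, the osteocalcin gene, lies wholly inside another gene of its strand and had 0 reads, so its transcription was not measured.

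In BMP signalling, the growth factor pathway that induces RUNX2, 20 of 21 genes were tested. In U2OS 13 fell and 1 rose, and in U2OS-AsiSI 13 fell and 4 rose, with medians of -0.27 and -0.32, beside 32.4% and 32.6% of all tested genes lower. The smallest adjusted p-values were those of the type I receptors BMPR1A and BMPR1B, long genes of 176 and 400.5 kb. BMPR1A fell by 0.62 in U2OS and by 0.81 in U2OS-AsiSI (SE 0.04 and 0.05, edgeR adjusted p = 1.46e-16 and 4.47e-15). BMPR1B fell by 0.67 and by 0.76 (SE 0.04 and 0.05, edgeR adjusted p = 1.9e-18 and 1.34e-14). CHRD, the antagonist chordin, fell more, by 0.94 and by 1.19 (SE 0.20 and 0.26, edgeR adjusted p = 8.13e-05 and 0.000229), at 9 to 68 counts per library, and is named here after its values were seen. Scaling by library totals left 10 lower in each line and made 6 and 7 higher. It made 3799 of all 20687 tested genes lower and 10968 higher in U2OS. In U2OS-AsiSI it made 4024 of 20441 lower and 10550 higher. Among 17 genes of Wnt signalling in bone, 9 of 14 tested fell and 1 rose in U2OS, and 8 of 13 fell and 1 rose in U2OS-AsiSI, with medians of -0.36 and -0.25, where 66.9% and 68.0% of all tested genes passed in either direction. The transcription factor TCF7L1 fell by 0.67 and by 0.68, and the co-receptor LRP5 by 0.44 and by 0.50 (edgeR adjusted p from 1.54e-17 to 7.06e-10). In U2OS-AsiSI this split rested on the scaling, with 4 lower and 4 higher under library totals, against 6 and 4 in U2OS.

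Among 20 partners, relatives and regulators of RUNX2, 17 were tested, and 7 rose and 6 fell in each line, close to the split of all tested genes (34.5% higher and 32.4% lower in U2OS, 35.4% and 32.6% in U2OS-AsiSI). DLX3, named after its values were seen, is among the rises. In U2OS it averaged 0.278 CPM under siCtrl and 0.716 CPM after siINTS11. There it reached the count minimum only by its siINTS11 libraries, so these counts are descriptions. Under library totals 11 rose and 2 fell in U2OS, and 10 and 4 in U2OS-AsiSI. By that scaling 10968 of all 20687 tested genes rose and 3799 fell in U2OS. In U2OS-AsiSI 10550 of 20441 rose and 4024 fell. RUNX3, a paralogue that binds the same core, rose by 0.51 in U2OS and by 0.59 in U2OS-AsiSI (SE 0.04 in both, edgeR adjusted p = 1.77e-14 and 8.79e-13). TLE3, a Groucho corepressor, rose by 0.32 and by 0.52 (edgeR adjusted p = 1.06e-08 and 1.77e-11). RUNX2 thus fell while its paralogue RUNX3 rose in the same libraries. Their paralogue RUNX1, named after its values were seen, averaged 1111 CPM under siCtrl in U2OS and 1056 CPM in U2OS-AsiSI. RUNX1 spans 1217 kb and RUNX2 336 kb, so CPM over the whole span do not rank these genes. RUNX1 did not pass, at -0.05 in U2OS and 0.06 in U2OS-AsiSI (edgeR adjusted p = 0.37 and 0.231). With library totals it rose by 0.15 and by 0.25 and passed (edgeR adjusted p = 1.94e-05 and 1.01e-07). CBFB, the shared partner subunit of all RUNX proteins, changed by -0.05 in U2OS (edgeR adjusted p = 0.239) and by 0.10 in U2OS-AsiSI (edgeR adjusted p = 0.0381); CBFB was named after its values were seen.

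Between the lines under siCtrl, 17.8% of all tested genes were higher and 17.2% lower in U2OS-AsiSI. The matrix list had 1 higher and 3 lower in U2OS-AsiSI of 14, led by COL5A2 (-0.40, SE 0.04, edgeR adjusted p = 8.4e-09) and COL5A1 (-0.27, SE 0.04, edgeR adjusted p = 9.39e-06). The BMP list had 4 higher and 7 lower of 20, led by the ligand BMP4 (-0.55, SE 0.07, edgeR adjusted p = 8.46e-08) and BMPR1A (-0.28, SE 0.05, edgeR adjusted p = 2.61e-05). The Wnt list had 3 higher and 6 lower of 14, led by TCF7L1 (-0.47, SE 0.05, edgeR adjusted p = 3.14e-09) and AXIN2 (-0.56, SE 0.08, edgeR adjusted p = 2.31e-06), a feedback inhibitor of which 71.2% overlaps another gene of its strand. The RUNX2 partner list had 5 higher and 1 lower of 17, led by RUNX3 (0.35, SE 0.05, edgeR adjusted p = 3.12e-07) and MSX1 (0.52, SE 0.11, edgeR adjusted p = 0.000315), the paralogue of MSX2. DLX3, also among the 5 higher, averaged 0.278 CPM in U2OS and 0.563 CPM in U2OS-AsiSI. It reached the count minimum through its U2OS-AsiSI libraries. With library totals the matrix list turned to 3 higher and 2 lower, and the BMP list to 5 and 5. Of all 19935 tested genes 4921 were then higher and 2376 lower. In the interaction 1 matrix gene (PHEX, lower), 1 BMP gene (NOG, higher) and 0 genes of the other 2 lists passed, where 3.87% of all tested genes did. Scaled by library totals, NOG no longer passed (edgeR adjusted p = 0.0571) and BMPR1A did, in the lower direction (-0.20, edgeR adjusted p = 0.028).

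Markers of other mesenchymal fates were read in the same libraries. Of 7 chondrocyte markers 5 averaged at least 10 counts, and the summed level of the list was 468.9 to 501.4 CPM under siCtrl and 241 to 261 CPM after siINTS11 in U2OS, and 399.4 to 422.7 against 211.6 to 221.8 CPM in U2OS-AsiSI. The sum was mostly that of SOX5 and SOX6, genes of 1033 and 773 kb that fell in both lines. Of the 5 tested markers, 2 were lower and 1 higher in U2OS, and 2 lower and 2 higher in U2OS-AsiSI, with medians of 0.05 and 0.22. Of all tested genes 32.4% were lower and 34.5% higher in U2OS, and 32.6% and 35.4% in U2OS-AsiSI. The medians of all tested genes were 0.02 and 0.03. ACAN, the cartilage proteoglycan aggrecan, rose by 0.84 and by 0.99 (edgeR adjusted p = 2.02e-10 and 7.29e-11). Of 6 adipocyte markers 3 averaged at least 10 counts. In U2OS the list summed to 103.6 to 110.2 CPM under siCtrl and to 61.0 to 68.8 CPM after siINTS11. In U2OS-AsiSI it summed to 102.6 to 112.4 against 56.8 to 65.2 CPM. Nearly all of that was PPARG, at 102 CPM under siCtrl in both lines. PPARG and LPL fell in both lines, and CEBPA rose by 0.78 in both (edgeR adjusted p = 0.0023 and 0.00123). The sum of the 9 osteoblast lineage genes was 679.7 to 684.4 CPM against 445.9 to 484.3 CPM in U2OS, and 529.6 to 553.5 against 366.7 to 385.5 CPM in U2OS-AsiSI, nearly all of it RUNX2 and SPARC. Of 6 skeletal muscle markers 1, the embryonic myosin gene MYH3, averaged at least 10 counts, with 105 to 210 per library, and 2 were at 0 throughout. MYH3 fell by 0.34 in U2OS (edgeR adjusted p = 0.00397) and by 0.43 in U2OS-AsiSI (edgeR adjusted p = 0.000514), and the list summed to at most 7.14 CPM. Of 6 blood markers 0 averaged 10 counts and 1 was at 0 throughout, with sums of at most 0.459 CPM. Single markers were named here after their values were seen. The part that these markers' shifts had in the results was not tested.

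Over the 12 libraries, the genes whose log2 level ran most like that of RUNX2, of 11070 compared, were GXYLT2 (Pearson r = 0.997), TSHZ2 (0.996) and FAM214A (0.996). All are long genes, of 110, 523 and 128 kb, on other chromosomes. GXYLT2, for one, averaged 124.9, 59.2, 81.0 and 31.7 CPM in the U2OS siCtrl, U2OS siINTS11, U2OS-AsiSI siCtrl and U2OS-AsiSI siINTS11 groups, the same order as RUNX2. For SPARC they were CAPZB (0.949), TPM1 (0.946) and UBE2L3 (0.929). The libraries share their group structure and scaling, so these values describe likeness of pattern only.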

How the data were processed

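TT-seq libraries were grouped and numbered by their titles. Per the submitters' processing notes, Trimmomatic 0.36, STAR 2.7, deepTools and featureCounts were used with the hg38 build; how duplicates were handled is not given in the sources used here. Per the file headers, the values deposited are whole read counts over each gene's span, with 0 columns left without a sample. For read counts without molecular identifiers, counting error is a part of the spread between libraries, which the tests estimate from the replicates.

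Genes were tested on the counts as deposited with edgeR 4.0.16 in R 4.3.3 (filterByExpr, TMM, robust dispersion and quasi-likelihood fits, two-sided). Each SE was obtained by dividing the size of the log2 change by the root of its F statistic. CPM uses TMM-scaled library sizes. Each siRNA or line comparison used its 6 libraries, and the interaction all 12. Tests were checked on simulated data. The members and lists were chosen with earlier results of these data known. Named genes are the 9, INTS11, overlapping or upstream neighbours within 50 kb, up to 2 genes per list with the smallest adjusted p in any comparison (1 such gene is not reported here), and the 3 protein-coding genes (mean of 100 counts or more) most correlated with RUNX2 and with SPARC on log2(CPM + 0.1). Span and likeness used genes matched to GENCODE 29 types. Alternatives were median-of-ratios factors, library totals, no filter, a mean count of at least 50, a replicate block, DESeq2 1.42.0, libraries thinned to the smallest total, 1 fit of all 12 libraries and each library left out. Figures used matplotlib 3.10.9.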

Additional observations from a re-analysis of the deposited data

Results flagged for a closer look

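A test of the difference between the lines in the siINTS11 effect passed for 3 genes named above, by edgeR over all 12 libraries. The effects in each line are from fits of its 6 libraries and the differences from the fit of all 12, so they do not subtract exactly. The effect on RUNX2 was -1.07 in U2OS-AsiSI and -0.84 in U2OS, and the difference was -0.26 (edgeR adjusted p = 0.0213). PHEX, an endopeptidase of phosphate balance in bone, changed by -0.22 in U2OS-AsiSI (edgeR adjusted p = 0.00401) and by 0.13 in U2OS (edgeR adjusted p = 0.0594), a difference of -0.39 (SE 0.10, edgeR adjusted p = 0.0197). NOG, the BMP antagonist noggin, changed by 0.37 in U2OS-AsiSI (edgeR adjusted p = 3.1e-05) and by -0.01 in U2OS (edgeR adjusted p = 0.951), a difference of 0.34 (SE 0.10, edgeR adjusted p = 0.0479). With library totals alone the difference for PHEX was -0.36 (edgeR adjusted p = 0.0487) and that for NOG 0.36, which no longer passed (edgeR adjusted p = 0.0571); with median-of-ratios factors both passed (edgeR adjusted p = 0.0396 and 0.0365).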

How the results depend on the processing

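After siINTS11, RUNX2, MSX2, ALPL and SPP1 kept their direction and their side of the threshold in both lines under every alternative that could test them; SPP1 could not be tested at a mean count of at least 50. Leaving out 1 library gave 4 to 4 called genes in U2OS-AsiSI, 5 to 5 in U2OS and 3 to 4 between the siCtrl groups. For the interaction the count was 1, against 0 with median-of-ratios factors, 2 with library totals, 2 with no count filter, 2 with DESeq2, and 0 to 2 without 1 library; at a mean count of at least 50 the 1 gene was SPARC, not RUNX2. RUNX2 there ran from -0.31 to -0.19 over 19 alternatives (adjusted p from 0.00972 to 0.119) and passed in 10; it was lost without U2OS siCtrl replicates 1 or 3, U2OS siINTS11 replicates 2 or 3, U2OS-AsiSI siCtrl replicates 1 or 2, or U2OS-AsiSI siINTS11 replicate 2. Over all genes the interaction called 832, against 447 with median-of-ratios factors, 423 with DESeq2, 531 with the replicate block, 544 after thinning, and 286 to 946 without 1 library. The cause was not tested.

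SPARC in U2OS-AsiSI turned to 0.17 with library totals and to 0.028 at a mean count of at least 50. Without U2OS-AsiSI siCtrl replicate 2, SPP1 between the siCtrl groups turned to -0.012 (range without 1 library -0.012 to 0.49), and the ALPL interaction to 0.00028 (range -0.38 to 0.00028), neither called before or after. After each gene's group mean was subtracted from its log CPM, same-numbered libraries of the compared groups correlated between -0.25 and 0.35. The highest of these values was between the replicate 1 libraries of U2OS-AsiSI. That siINTS11 library reached at most -0.11 with siCtrl libraries of other numbers. With 3 replicates per group these values cannot decide whether the numbers pair libraries. The replicate block gave 4, 5, 4 and 1 called genes in U2OS-AsiSI, in U2OS, between the siCtrl groups and in the interaction, as without it. Depth limits SP7, DLX5, TWIST1 and IBSP, which had at most 12 counts per library.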
